A study of Homo sapiens with 31 samples.

Results

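Interferon-stimulated genes are the genes that a cell switches on when it senses interferon, and 40 of them, chosen by name, were followed here among the 17113 protein-coding genes of the count table. All 40 were in the table, and all 40 passed the filter on low counts that left 14452 genes for testing. Each line had 3 libraries of its own total RNA, from the adenocarcinoma lines LoVo, LS1034, HT-29 and HCT 116 and from CCD 841 CoN, labelled normal, all wild type and from colon or cecum. There were also 16 mixtures, 1 library for each cancer line with its RNA at 0.1, 1, 10 or 50% and CCD 841 CoN RNA making up the rest. The labels give no treatment for any line. The labels name a pair of culture media without saying which line grew in which, so line and medium cannot be told apart.

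In the canonical pathway, interferon at the cell surface activates receptor-bound kinases, which phosphorylate STAT proteins. A complex that holds STAT2 and IRF9 then forms, known as ISGF3, a transcription factor that binds the interferon-stimulated response element (ISRE) in the promoters of its targets. Some of these targets also respond to other interferon regulatory factors, and many keep a low constitutive level in cells that see no added interferon. The products sense viral RNA, block viral entry, translation or release, tag proteins with the ubiquitin-like modifier ISG15, or damp the signal.

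The unmixed libraries held 9688765 to 37418506 counts and the mixtures 13075811 to 56741879. Levels are given in CPM, the count of a gene scaled to a common library total, for libraries 1, 2 and 3 of a line, in that order. CPM is not divided by gene length, so levels are compared between lines and not between genes. The labelled cell types were checked by marker lists. The 8 colon epithelium markers summed to 2395 to 22885 CPM in the cancer lines, with the lowest sums in HCT 116, and to 210 to 265 CPM in CCD 841 CoN, where 6 of the 8 stayed below 1 CPM in every library and 3 had no count. The 8 fibroblast markers summed to 2.11 to 29.5 CPM in the cancer lines and to 22655 to 26664 CPM in CCD 841 CoN. In CCD 841 CoN the fibroblast markers thus far exceeded the epithelial ones, and as the only normal line it leaves cancer status, cell type and line inseparable. The 7 leukocyte markers in the table summed to at most 8.98 CPM in the cancer lines and to 12.01 to 48.4 CPM in CCD 841 CoN, nearly all of it CD14 (35.8 ± 20.7 CPM, SD, n = 3), and PTPRC, the pan-leukocyte antigen, had no count there. The 3 markers of plasmacytoid dendritic cells, the main interferon-producing cells of blood, stayed at or below 0.321 CPM except in LS1034 (27.4 to 44.2 CPM), where GZMB made up most of the sum (34.2 ± 8.003 CPM) and CLEC4C averaged 0.0487 ± 0.0843 CPM. The 4 endothelial markers summed to at most 4.47 CPM in the cancer lines and to 184 to 239 CPM in CCD 841 CoN, almost all of it TEK.

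The ISRE is shown first because most of the genes below carry it. RefSeq promoter windows (build GRCh38.p14, 250 bases before to 50 after an annotated start) were available for 32 of the 40 genes, 8 of them with more than 1 start, making 41 windows. Both strands were searched for GAAANNGAAA, the core of the ISRE, with overlapping matches counted. It occurred in 27 of the 41 windows (65.9%) against 1255 of all 35116 windows of the same length (3.57%), and in 23 of the 32 genes (71.9%) against 1195 of 27305 genes (4.38%). The shorter GAS element TTCNNNGAA, known from the interferon gamma response, occurred in 9 of the 32 genes (28.1%) against 2560 of 27305 genes (9.38%). A match describes these letters only. The windows below belong to genes called different from CCD 841 CoN in at least 1 line in the tests that follow, and to IFIT1 and DTX3L, called in none, which stand beside their partners IFIT3 and PARP9. They are read 5′ to 3′ on the strand of the gene, and the capitals mark the matches.
IFIH1 (chr2:162318808-162318863, minus strand): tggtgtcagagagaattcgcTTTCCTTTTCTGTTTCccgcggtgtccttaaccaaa
IFIT1 (chr10:89392487-89392549, plus strand): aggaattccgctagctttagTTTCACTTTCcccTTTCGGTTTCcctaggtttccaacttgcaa
IFIT3 (chr10:89327821-89327904, plus strand): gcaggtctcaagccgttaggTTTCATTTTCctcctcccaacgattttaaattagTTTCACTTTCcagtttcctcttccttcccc
OAS3 (chr12:112938442-112938473, plus strand): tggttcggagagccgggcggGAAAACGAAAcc
IFITM1 (chr11:313980-314043, plus strand): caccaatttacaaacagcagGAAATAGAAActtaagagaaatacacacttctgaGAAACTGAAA
BST2 (chr19:17405725-17405780, minus strand): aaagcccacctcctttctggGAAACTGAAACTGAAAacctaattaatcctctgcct
HERC5 (chr4:88456974-88457029, plus strand): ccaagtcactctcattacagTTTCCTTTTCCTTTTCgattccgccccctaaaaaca
IFI27 (chr14:94110608-94110670, plus strand): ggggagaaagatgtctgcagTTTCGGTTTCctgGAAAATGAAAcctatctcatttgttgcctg
EPSTI1 (chr13:42992262-42992311, minus strand): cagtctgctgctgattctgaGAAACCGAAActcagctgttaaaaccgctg
GBP1 (chr1:89065306-89065355, minus strand): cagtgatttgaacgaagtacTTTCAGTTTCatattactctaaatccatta
In IFIH1, BST2 and HERC5 a pair of matches overlaps, while IFIT1, IFIT3, IFITM1 and IFI27 have a pair apart from each other. The matches printed for IFIH1, IFIT1, IFIT3, HERC5 and GBP1 lie on the opposite strand and so read as runs of TTTC. IFIH1 has a further match on the sense strand, 21 to 12 bases before its start, outside the stretch printed. OAS3 likewise has one on the sense strand, 143 to 134 bases before its start. HERC5 has one on the opposite strand, 74 to 65 bases before its start. IFIT3 has 2 further matches in the window of its other start. PARP9 and DTX3L start on opposite strands of chromosome 3, and 1 match serves both windows:
PARP9 (chr3:122564312-122564361, minus strand): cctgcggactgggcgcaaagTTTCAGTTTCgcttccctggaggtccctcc
DTX3L (chr3:122564312-122564341, plus strand): ggagggacctccagggaagcGAAACTGAAA
No match was found in the windows of IFI35, OAS1, HERC6, STAT2, IRF1, IRF9, XAF1, SAMD9L and UBE2L6. IFIT2, IFITM2, MX2, OAS2, OASL, IRF7, USP18 and TRIM22 are named only.

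**Figure D1:**
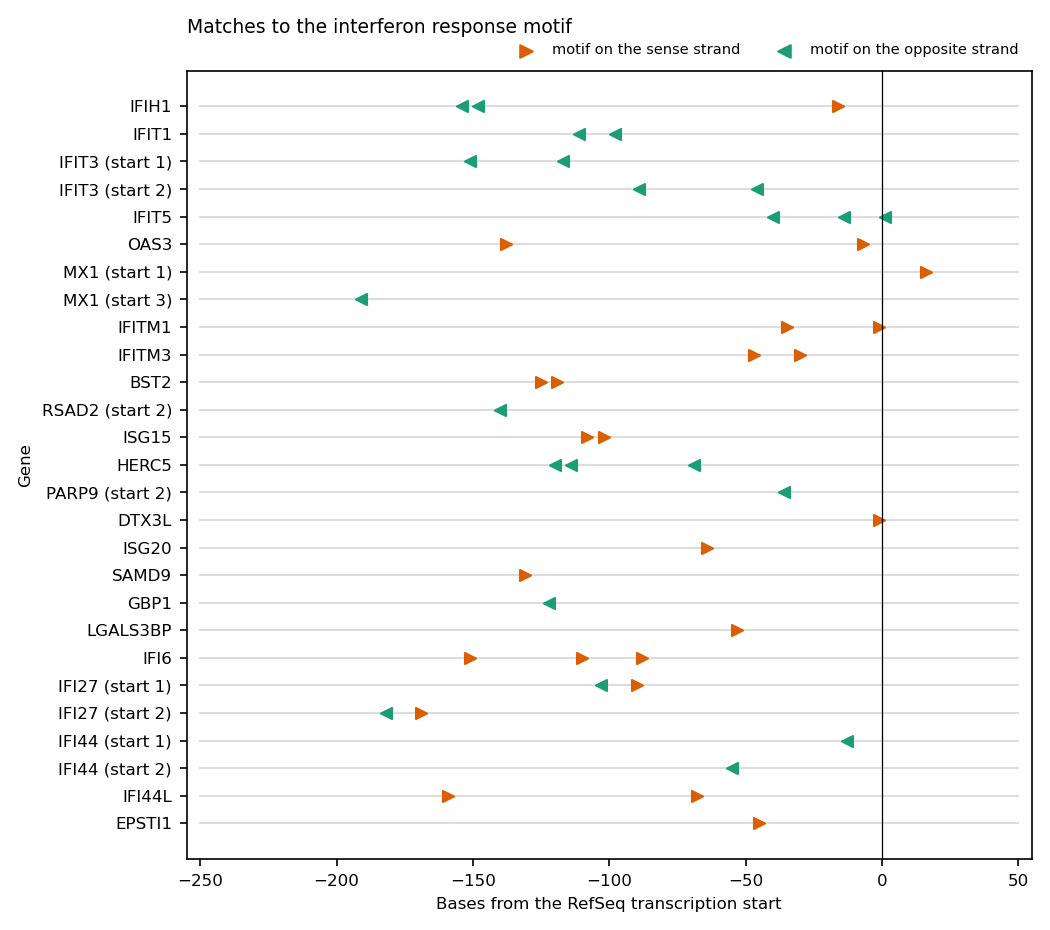
Position of each ISRE core match in the promoter windows, one row per gene and start, in bases from the RefSeq transcription start (x axis). Arrowheads point right for matches on the sense strand and left for the opposite strand, and of the 23 genes with a match 13 have 2 or more in 1 window.

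Each cancer line was then compared with CCD 841 CoN. A gene was called at an adjusted p below 0.05 and a difference of at least 1 on the log2 scale. In LoVo 11 of the 40 genes were called higher, where 26.5% of all tested genes were, and 12 lower, against 21.6% of all genes. LS1034 had 9 called higher (25.7% of all genes) and 12 lower (21.4%). HT-29 had 8 called higher (24.7% of all genes) and 12 lower (20.9%). HCT 116 stood apart with 4 called higher (25.4% of all genes) and 23 lower (21.2%). The median log2 fold change of the 40 genes was -0.78 in LoVo, 0.01 in LS1034, -0.05 in HT-29 and -1.77 in HCT 116, beside medians of 0.23, 0.24, 0.21 and 0.23 over all tested genes. For the mean of the 4 lines, 8 were called higher (24.8% of all genes) and 18 lower (22.3%), with a median of -0.70 beside 0.22. The 4 comparisons share the 3 CCD 841 CoN libraries, so their values stand side by side and are not independent.

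By pattern, 3 genes were called higher in all 4 lines (IFIH1, OAS3 and OASL) and 8 lower in all 4 (IFITM2, IFITM3, STAT2, IRF1, XAF1, SAMD9L, GBP1 and TRIM22), where 1586 (11%) and 1571 (10.9%) of the 14452 tested genes were. The calls of OASL and IFIH1 in HCT 116, IRF1 in LS1034, and OAS3 and XAF1 in LoVo were each lost when some library was left out, as given below. Another 7 were called higher in 1 to 3 lines and lower in none, and 12 lower in 1 to 3 lines and higher in none. IFI27, IFIT2, IFITM1, MX1 and OAS1 were called higher in at least 1 line and lower in at least 1 other. Such opposite calls were made for 482 of the 14452 tested genes (3.34%). IFI44L, IFIT1, SAMD9, DTX3L and LGALS3BP were called in none, as were 26.4% of all tested genes. Under other settings IFIT1, SAMD9, DTX3L and LGALS3BP were each called in some line, as given below. The scaling of libraries moved the whole distribution: with DESeq2 size factors the median over all genes fell by 0.13 to 0.17 in the comparisons of single lines, and with library size only it was 0.25 to 0.33 higher. With library size only, calls over all genes were 4793 higher and 2562 lower in LoVo, where TMM scaling gave 3824 higher and 3119 lower. In HCT 116 they were 4650 higher and 2517 lower, where TMM scaling gave 3676 higher and 3066 lower. No call of the 40 genes changed direction under any scaling. The count of genes called higher in HCT 116 was 2 without HCT 116 replicate 1, and the count called higher in the mean of the lines was 5 without CCD 841 CoN replicate 1 or 2. HERC5, HERC6 and IFI44 were lost from that mean in 11, 10 and 4 of the 15 fits that left out 1 library. Whether a line's 3 libraries are separate cultures is not stated in the labels, so the p-values measure only the spread between these libraries. In RNA of whole cultures, fewer expressing cells and less RNA per cell cannot be told apart.

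**Figure D2:**
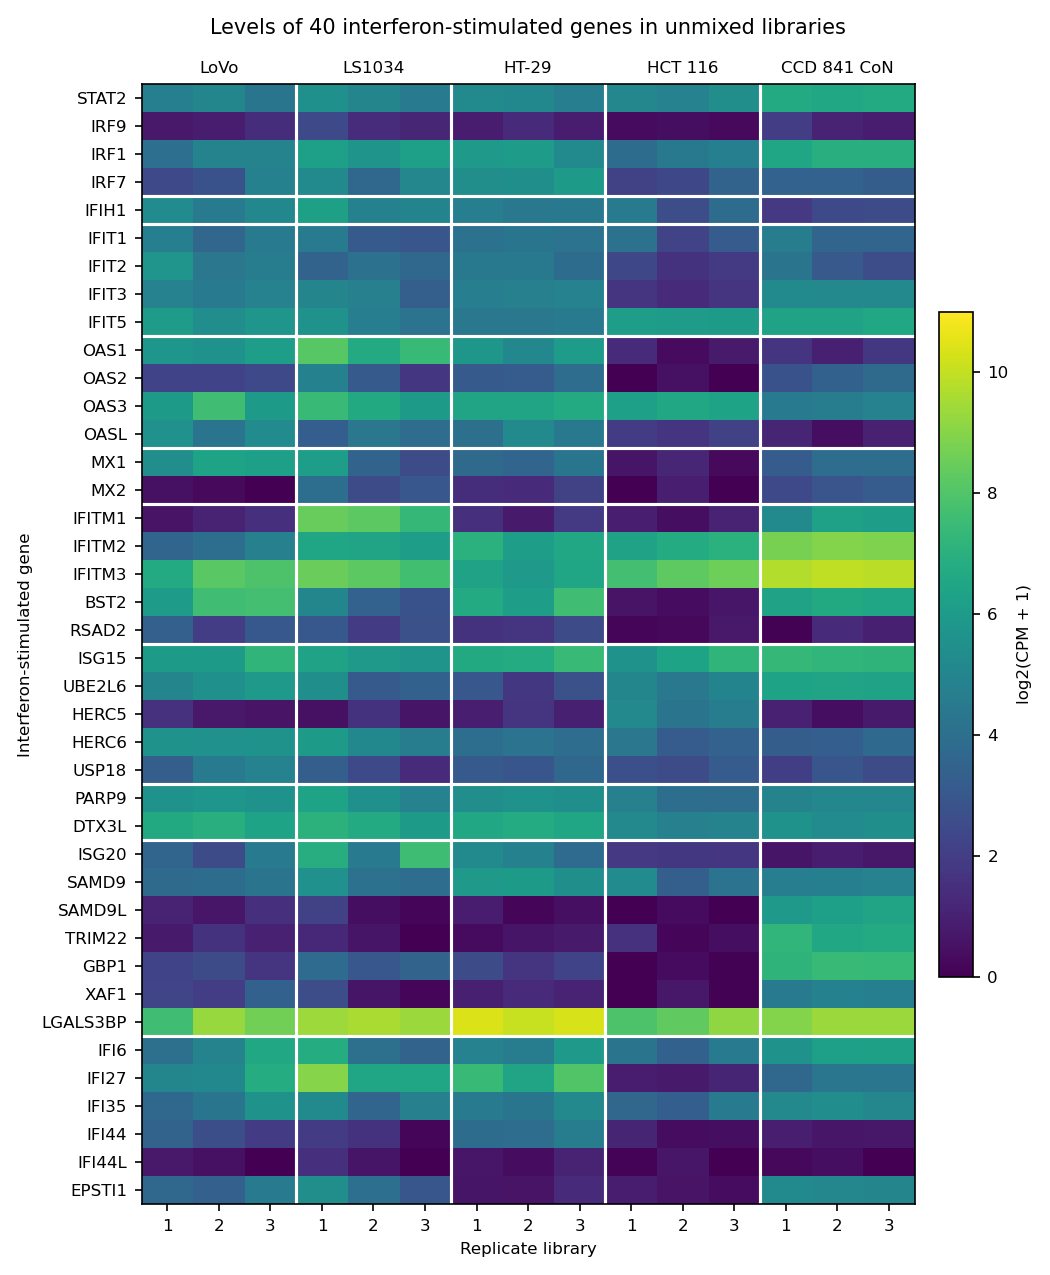
Levels of the 40 genes, grouped by role, in the 15 unmixed libraries, as log2(CPM + 1) with cancer lines on the left and CCD 841 CoN on the right. The HCT 116 columns are dark for OAS1, OAS2, OASL, MX1, MX2 and IFI27 and brighter than the rest for HERC5. MX2 is also dark in LoVo, as are OAS1 and OASL in CCD 841 CoN. SAMD9L, TRIM22, GBP1 and XAF1 are brightest in CCD 841 CoN.

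**Figure D3:**
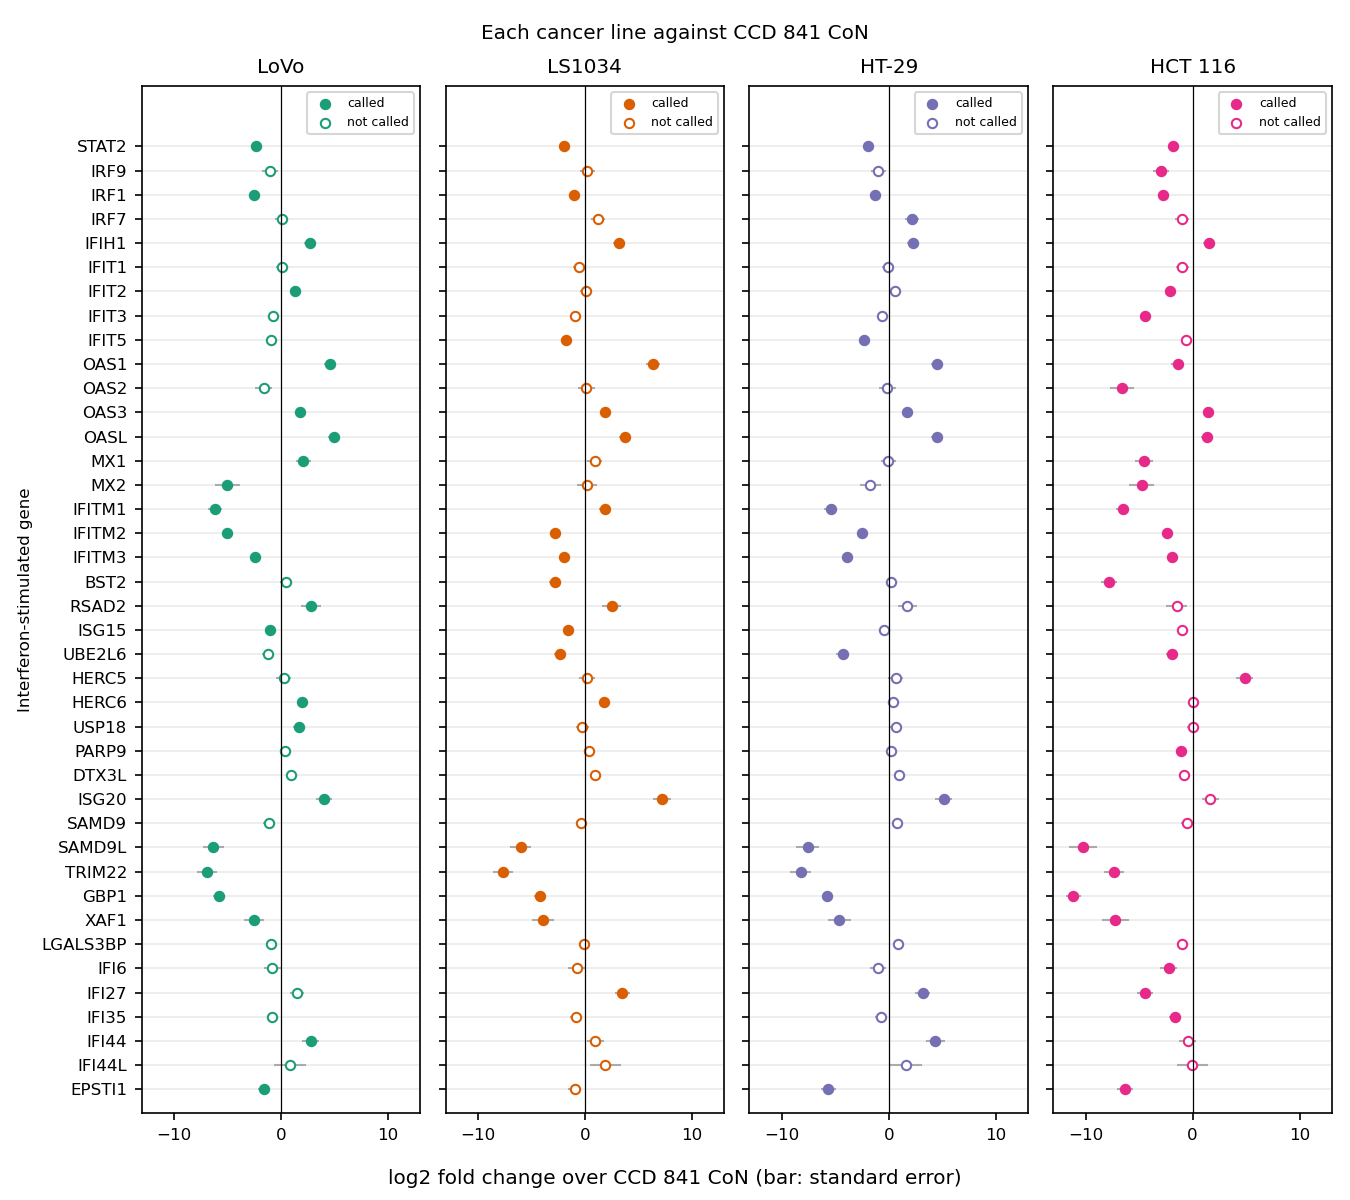
Log2 fold change of each gene in each cancer line over CCD 841 CoN (x axis) with its standard error, filled where called and open where not. The lowest values are those of GBP1 and SAMD9L in HCT 116 and of TRIM22 in HT-29, and the highest is ISG20 in LS1034.

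Of the transcription factors, STAT2 and IRF1 were lower in all 4 cancer lines, while IRF9 and IRF7 were each called in 1. STAT2, a subunit of ISGF3, stood at 25.7, 31.7 and 18.6 CPM in LoVo, 45.02, 31.4 and 22.02 in LS1034, 36.96, 33.8 and 25.3 in HT-29 and 33.5, 28.7 and 42.8 in HCT 116, against 106, 92.5 and 106 CPM in CCD 841 CoN. All 12 cancer libraries were below all 3 CCD 841 CoN libraries, and the 4 lines were not called different: the gap between the highest and lowest line was 0.50 log2 units (adjusted p = 0.394). The log2 fold changes were -2.34 ± 0.30 in LoVo, -1.91 ± 0.29 in LS1034, -1.91 ± 0.29 in HT-29 and -1.84 ± 0.29 in HCT 116 (± SE), each called, with a mean over the lines of -2.002 ± 0.20, adjusted p = 3.04e-07. IRF9, the DNA-binding subunit of ISGF3, was scarce everywhere, with 0.695, 0.845 and 1.67 CPM in LoVo, 4.44, 1.62 and 1.27 in LS1034, 0.766, 1.48 and 0.833 in HT-29, 0.242, 0.3397 and 0.231 in HCT 116 and 3.04, 1.11 and 0.826 in CCD 841 CoN. HCT 116 alone was called lower (log2 fold change -2.95 ± 0.76, adjusted p = 0.00404), whose 3 libraries lay below all others. IRF9 differed among the cancer lines by 3.19 log2 units (adjusted p = 0.0134), but not without LS1034 replicate 1, its highest library (gap 2.45, adjusted p = 0.0797).

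IRF1, a factor best known as a target of interferon gamma, averaged 24.5 ± 8.26 CPM in LoVo, 65.6 ± 13.1 in LS1034, 54.7 ± 14.9 in HT-29 and 20.2 ± 6.12 in HCT 116, against 109 ± 15.8 CPM in CCD 841 CoN (SD, n = 3 each). Every line was called lower, with the lowest log2 fold change in HCT 116 (-2.75 ± 0.33, adjusted p = 4.6e-06). The LS1034 value (-1.002 ± 0.31, adjusted p = 0.0131) lay at the limit of 1 and was lost without LS1034 replicate 2, HT-29 replicate 3 or CCD 841 CoN replicate 2 or 3 (-0.999 to -0.901). With library size only, IRF1 missed the limit in HT-29 (-0.997) and in LS1034 (-0.74, adjusted p = 0.0617). IRF7, which amplifies interferon alpha transcription, averaged 12.6 ± 13.1 CPM in LoVo, 27.03 ± 13.2 in LS1034, 49.6 ± 11.1 in HT-29 and 5.997 ± 3.72 in HCT 116, against 9.52 ± 0.919 CPM in CCD 841 CoN. It was highest in HT-29, the one line called (2.14 ± 0.64, adjusted p = 0.011).

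IFIH1, which encodes MDA5, the sensor of long double-stranded RNA, went the other way. Its levels were 38.9, 21.4 and 33.6 CPM in LoVo, 74.4, 27.6 and 30.2 in LS1034, 25.1, 20.01 and 20.9 in HT-29 and 21.7, 4.999 and 13.7 in HCT 116, against 2.52, 4.46 and 4.85 CPM in CCD 841 CoN. Every cancer library was above every CCD 841 CoN library, by the least in HCT 116 replicate 2. The log2 fold changes were 2.7003 ± 0.54 in LoVo, 3.22 ± 0.55 in LS1034, 2.26 ± 0.53 in HT-29 and 1.52 ± 0.52 in HCT 116, with a mean of 2.42 ± 0.48, adjusted p = 0.000407. The HCT 116 call was lost without HCT 116 replicate 1 or CCD 841 CoN replicate 1 (0.90 to 1.27, adjusted p = 0.0981 to 0.157). The difference of IFIH1 among the cancer lines, 1.71 log2 units (adjusted p = 0.0461), was lost in 8 of the 15 fits that left out 1 library (gap 1.19 to 1.72, adjusted p = 0.0513 to 0.137): those without LS1034 replicate 1, HT-29 replicate 2 or 3, HCT 116 replicate 2 or 3, or any CCD 841 CoN library.

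IFIT proteins bind viral RNA and block its translation. IFIT2 and IFIT3 were lowest in HCT 116, while IFIT5 was higher there than in LS1034 and HT-29. IFIT3, the partner that stabilises IFIT1, stood at 28.01, 22.2 and 28.4 CPM in LoVo, 31.1, 27.1 and 9.03 in LS1034, 25.2, 26.99 and 28.7 in HT-29 and 2.18, 1.55 and 2.22 in HCT 116, against 36.2, 35.2 and 35.5 CPM in CCD 841 CoN. All 12 cancer libraries were below CCD 841 CoN, but HCT 116 was the one line called lower (log2 fold change -4.46 ± 0.42, adjusted p = 3.11e-07). With DESeq2 size factors LS1034 was called lower as well (-1.10, adjusted p = 0.0155). LoVo, LS1034 and HT-29 each exceeded HCT 116, with log2 fold changes of 3.696 ± 0.40, 3.495 ± 0.40 and 3.81 ± 0.41. IFIT2 stood at 52.4, 19.4 and 23.9 CPM in LoVo, 10.4, 16.7 and 12.2 in LS1034, 20.7, 20.6 and 13.98 in HT-29 and 4.18, 2.04 and 2.68 in HCT 116, against 17.9, 7.46 and 5.06 CPM in CCD 841 CoN. It was called lower in HCT 116 (-2.08 ± 0.52, adjusted p = 0.00323) and higher in LoVo (1.33 ± 0.50, adjusted p = 0.0345). The LoVo call was lost without LoVo replicate 1 or CCD 841 CoN replicate 2 or 3 (0.69 to 1.15, adjusted p = 0.121 to 0.262).

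IFIT1 was called in no line, at 19.9 ± 7.45 CPM in LoVo, 12.4 ± 9.12 in LS1034, 17.3 ± 0.887 in HT-29 and 9.47 ± 6.33 in HCT 116, against 15.1 ± 7.07 CPM in CCD 841 CoN. IFIT5 averaged 53.6 ± 12.7 CPM in LoVo, 30.2 ± 15.9 in LS1034, 20.6 ± 0.5803 in HT-29 and 65.9 ± 5.13 in HCT 116, against 84.5 ± 8.21 CPM in CCD 841 CoN. It was called lower than in CCD 841 CoN in LS1034 (-1.77 ± 0.33, adjusted p = 0.000274) and HT-29 (-2.28 ± 0.33, adjusted p = 2.97e-05), and both were called lower than HCT 116 (-1.104 ± 0.32 in LS1034 and -1.61 ± 0.33 in HT-29).

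OAS1, OAS2 and OASL differed widely between the lines, and OAS3 was not called different among the cancer lines. OAS1 to OAS3 encode enzymes that, on binding double-stranded RNA, make the oligoadenylates that activate RNase L, and OASL, which lacks that activity, enhances RNA sensing. OAS1 stood at 54.6, 48.3 and 70.6 CPM in LoVo, 284, 105 and 173 in LS1034 and 55.3, 33.7 and 65.3 in HT-29, against 2.23, 0.943 and 2.48 CPM in CCD 841 CoN. In HCT 116 it stood at 1.51, 0.243 and 0.7402 CPM, a range that overlaps that of CCD 841 CoN. OAS1 was called higher in LoVo (4.61 ± 0.58, adjusted p = 5.98e-06), LS1034 (6.35 ± 0.62, adjusted p = 3.57e-07) and HT-29 (4.52 ± 0.57, adjusted p = 6.98e-06). In HCT 116 it was called lower (-1.41 ± 0.57, adjusted p = 0.0475), a call that was lost without HT-29 replicate 3, HCT 116 replicate 2 or 3, or CCD 841 CoN replicate 1 or 3 (-1.40 to -1.07, adjusted p = 0.0520 to 0.151). The gap among the cancer lines, from LS1034 down to HCT 116, was 7.76 log2 units (adjusted p = 7.78e-07 for any difference among them).

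OASL had 46.2, 18.1 and 39.1 CPM in LoVo, 8.64, 19.7 and 14.5 in LS1034, 15.8, 37.3 and 20.9 in HT-29 and 2.72, 2.28 and 3.33 in HCT 116, against 1.22, 0.343 and 1.03 CPM in CCD 841 CoN. All 12 cancer libraries exceeded the 3 of CCD 841 CoN, where OASL had 30, 4 and 10 counts. Calls of higher OASL were made in LoVo (4.97 ± 0.58, adjusted p = 2.78e-06), LS1034 (3.71 ± 0.55, adjusted p = 3.54e-05), HT-29 (4.52 ± 0.57, adjusted p = 6.3e-06) and HCT 116 (1.33 ± 0.53, adjusted p = 0.0458). The HCT 116 call was lost in 13 of the 15 fits that left out 1 library, all but those without LoVo replicate 2 or CCD 841 CoN replicate 1 (0.98 to 1.42, adjusted p = 0.0501 to 0.169). OAS3 stood at 62.1, 199 and 63.5 CPM in LoVo, 173, 101 and 62.3 in LS1034, 86.1, 83.7 and 105 in HT-29 and 72.9, 91.8 and 81.5 in HCT 116, against 21.1, 24.6 and 27.97 CPM in CCD 841 CoN, with no overlap between cancer and CCD 841 CoN libraries. Its log2 fold changes lay between 1.43 ± 0.39 in HCT 116 and 1.902 ± 0.40 in LS1034, with a gap of 0.47 log2 units (adjusted p = 0.704). LoVo replicate 2 was the highest of its line, and without it the LoVo fold change was 0.99 (adjusted p = 0.0205), just under the limit of 1.

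OAS2 stood at 3.63, 3.62 and 4.305 CPM in LoVo, 27.6, 7.62 and 2.31 in LS1034, 7.69, 8.26 and 14.4 in HT-29 and 0, 0.388 and 0 in HCT 116, against 5.804, 9.77 and 12.8 CPM in CCD 841 CoN. It was nearly absent from HCT 116, with 0, 8 and 0 counts, and was called lower there alone (-6.62 ± 1.098, adjusted p = 0.000112). The gap among the cancer lines was 6.74 log2 units (adjusted p = 0.000495). OAS1, OAS2 and OASL were each called higher in all 3 other lines than in HCT 116.

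The MX genes encode dynamin-like GTPases that trap incoming viral particles, MX1 with its best known effect on influenza virus and MX2 on retroviruses. MX1 stood at 41.9, 83.3 and 73.9 CPM in LoVo, 68.99, 10.2 and 4.85 in LS1034, 13.1, 10.9 and 18.1 in HT-29 and 0.545, 1.26 and 0.231 in HCT 116, against 8.24, 14.1 and 14.4 CPM in CCD 841 CoN. The ratio between the highest and lowest library was largest in LS1034. MX1 was called lower in HCT 116 (-4.504 ± 0.83, adjusted p = 0.000301) and higher in LoVo (2.096 ± 0.72, adjusted p = 0.0216), and the LoVo call was lost without LoVo replicate 2 or 3 or CCD 841 CoN replicate 1 (1.87 to 1.97, adjusted p = 0.0512 to 0.0810). The gap among the cancer lines, from LoVo down to HCT 116, was 6.5998 log2 units (adjusted p = 0.000104 for any difference among them). MX2 stood at 0.428, 0.201 and 0 CPM in LoVo, 14.8, 4.66 and 7.02 in LS1034, 1.74, 1.48 and 3.52 in HT-29 and 0, 0.922 and 0 in HCT 116, against 4.34, 6.43 and 8.15 CPM in CCD 841 CoN. It was called lower in LoVo, which had 16, 5 and 0 counts (-4.99 ± 1.18, adjusted p = 0.00199), and in HCT 116, which had 0, 19 and 0 counts (-4.78 ± 1.17, adjusted p = 0.00268).

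The IFITM proteins sit in cell and endosomal membranes and block fusion of viral envelopes. IFITM2 stood at 11.1, 14.6 and 26.9 CPM in LoVo, 89.4, 85.2 and 69.5 in LS1034, 129, 67.97 and 93.8 in HT-29 and 80.05, 109.5 and 131 in HCT 116, against 426, 499 and 475 CPM in CCD 841 CoN. IFITM3 stood at 105, 293 and 243 CPM in LoVo, 353, 303 and 199.8 in LS1034, 78.8, 59.4 and 86.9 in HT-29 and 208, 309 and 381 in HCT 116, against 846, 986 and 926 CPM in CCD 841 CoN. Both were called lower in every line with no overlap, IFITM2 with the lowest log2 fold change in LoVo (-5.06 ± 0.38, adjusted p = 2.46e-08) and IFITM3 with the lowest in HT-29 (-3.85 ± 0.36, adjusted p = 2.74e-07). IFITM1 stood at 0.481, 1.17 and 1.83 CPM in LoVo, 346, 297 and 158 in LS1034, 1.78, 0.722 and 2.69 in HT-29 and 0.908, 0.3397 and 1.11 in HCT 116, against 35.998, 78.3 and 68.9 CPM in CCD 841 CoN. Among the cancer lines it was thus high in LS1034 alone. It was called higher in LS1034 (1.84 ± 0.49, adjusted p = 0.00502) and lower in LoVo (-6.14 ± 0.62, adjusted p = 5.68e-07), HT-29 (-5.43 ± 0.60, adjusted p = 1.41e-06) and HCT 116 (-6.54 ± 0.63, adjusted p = 4.07e-07). Its gap among the cancer lines, 8.38 log2 units (adjusted p = 6.73e-09), was the largest of the 40 genes. IFITM2 and IFITM3 are close copies of each other, and how reads that match both were counted is not given in the sources used here, so their single levels are uncertain.

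BST2, or tetherin, which holds budding virions at the cell surface, stood at 65.4, 197 and 209.8 CPM in LoVo, 32.03, 10.04 and 5.897 in LS1034, 105, 71.02 and 194 in HT-29 and 0.515, 0.291 and 0.601 in HCT 116, against 79.2, 102 and 87.4 CPM in CCD 841 CoN. HCT 116 had 17, 6 and 13 counts, and its level was called lower (-7.84 ± 0.75, adjusted p = 3.78e-07), as was that of LS1034 (-2.76 ± 0.57, adjusted p = 0.000705). LoVo exceeded HCT 116 (log2 fold change 8.31 ± 0.76, adjusted p = 8.5e-07), which is the second largest gap of the 40 genes. RSAD2, or viperin, which makes a chain-terminating nucleotide, averaged 6.55 ± 3.27 CPM in LoVo, 5.24 ± 2.14 in LS1034, 2.99 ± 1.42 in HT-29 and 0.336 ± 0.312 in HCT 116, against 0.809 ± 0.716 CPM in CCD 841 CoN. It was called higher in LoVo (2.803 ± 0.91, adjusted p = 0.0165) and LS1034 (2.51 ± 0.91, adjusted p = 0.0288). The LoVo call was lost without LoVo replicate 1 (2.34, adjusted p = 0.0653), and the LS1034 call without LS1034 replicate 1 or 3 or CCD 841 CoN replicate 1 or 3 (1.86 to 2.65, adjusted p = 0.0567 to 0.0871).

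Of the ISG15 pathway, ISG15 itself is the modifier, UBE2L6 the conjugating enzyme, HERC5 the ligase in human cells, HERC6 its paralogue, which serves as the ligase in mouse, and USP18 the protease that removes ISG15 and blocks the interferon receptor. ISG15 averaged 90.5 ± 49.4 CPM in LoVo, 62.7 ± 15.1 in LS1034, 127 ± 38.7 in HT-29 and 93.04 ± 49.1 in HCT 116, against 149.7 ± 9.801 CPM in CCD 841 CoN. LS1034 was called lower (-1.54 ± 0.41, adjusted p = 0.00511), as was LoVo (-1.04 ± 0.41, adjusted p = 0.0397), and the LoVo call was lost without LoVo replicate 1 or 2 or any CCD 841 CoN library (-1.096 to -0.90, adjusted p = 0.0643 to 0.113). The cancer lines were not called different in ISG15 (gap 1.06 log2 units, adjusted p = 0.157). UBE2L6 stood at 30.97, 44.7 and 59.2 CPM in LoVo, 44.1, 7.75 and 9.704 in LS1034, 6.86, 2.45 and 5.65 in HT-29 and 31.8, 20.2 and 29.9 in HCT 116, against 82.95, 85.3 and 80.1 CPM in CCD 841 CoN. Calls of lower UBE2L6 were made in LS1034 (-2.29 ± 0.56, adjusted p = 0.00261), HT-29 (-4.29 ± 0.61, adjusted p = 2.39e-05) and HCT 116 (-1.897 ± 0.55, adjusted p = 0.00842).

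HERC5 stood at 1.92, 0.684 and 0.478 CPM in LoVo, 0.409, 2.08 and 0.523 in LS1034, 0.905, 2.17 and 0.926 in HT-29 and 34.9, 17.7 and 24.01 in HCT 116, against 1.01, 0.343 and 0.722 CPM in CCD 841 CoN. The 3 HCT 116 libraries exceeded all others, while those of the other cancer lines overlapped CCD 841 CoN. HCT 116 was called higher than CCD 841 CoN (log2 fold change 4.85 ± 0.77, adjusted p = 7.64e-05), and LoVo, LS1034 and HT-29 were called lower than HCT 116 (-4.58 ± 0.74, -4.66 ± 0.75 and -4.21 ± 0.73). HERC6 did not share this pattern: it averaged 48.3 ± 1.25 CPM in LoVo, 40.7 ± 20.1 in LS1034, 15.3 ± 1.55 in HT-29 and 12.5 ± 6.01 in HCT 116, against 9.97 ± 2.18 CPM in CCD 841 CoN. HERC6 was called higher in LoVo (1.96 ± 0.39, adjusted p = 0.000532) and LS1034 (1.75 ± 0.39, adjusted p = 0.00131). USP18 averaged 19.8 ± 9.74 CPM in LoVo, 4.98 ± 3.73 in LS1034, 8.71 ± 2.76 in HT-29 and 6.13 ± 1.89 in HCT 116, against 4.804 ± 1.72 CPM in CCD 841 CoN, and was called higher in LoVo (1.71 ± 0.57, adjusted p = 0.019). That call was lost without LoVo replicate 2 or 3 or CCD 841 CoN replicate 1 or 3 (1.32 to 1.68, adjusted p = 0.0525 to 0.0838). Its difference among the cancer lines, 1.93 log2 units (adjusted p = 0.0228), was lost without LoVo replicate 2 or 3 (1.55 to 1.86, adjusted p = 0.0656 to 0.121).

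PARP9 and DTX3L form a complex of an ADP-ribosyltransferase-like protein and a ubiquitin ligase, and their genes share the promoter shown above. PARP9 averaged 50.6 ± 3.26 CPM in LoVo, 52.2 ± 28.3 in LS1034, 44.6 ± 3.22 in HT-29 and 18.5 ± 7.08 in HCT 116, against 31.8 ± 2.15 CPM in CCD 841 CoN. DTX3L averaged 102 ± 20.03 CPM in LoVo, 101 ± 35.7 in LS1034, 98.3 ± 10.2 in HT-29 and 30.5 ± 4.16 in HCT 116, against 43.1 ± 4.73 CPM in CCD 841 CoN. HCT 116 was the lowest line for both, and both were called higher in each of the other cancer lines than in HCT 116. For DTX3L the log2 fold changes over HCT 116 were 1.704 ± 0.27 in LoVo, 1.73 ± 0.27 in LS1034 and 1.74 ± 0.27 in HT-29. For PARP9 they were 1.41 ± 0.35 in LoVo, 1.5004 ± 0.35 in LS1034 and 1.31 ± 0.35 in HT-29. Against CCD 841 CoN, PARP9 was called lower in HCT 116 (-1.07 ± 0.35, adjusted p = 0.0165), a call lost without HCT 116 replicate 2 or 3 (-0.98 to -0.92, adjusted p = 0.0485 to 0.0665). DTX3L stayed under the fold limit in every line, with 0.90 ± 0.26 in LoVo, 0.93 ± 0.26 in LS1034, 0.94 ± 0.26 in HT-29 and -0.80 ± 0.26 in HCT 116. With library size only it passed that limit in LoVo, LS1034 and HT-29 (1.24, 1.22 and 1.19). The kit kept strand, but the strand setting of the count is not given in the sources used here.

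Averaged over the 4 lines, the lowest fold changes against CCD 841 CoN were those of SAMD9L, TRIM22, GBP1 and XAF1. GBP1, a guanylate-binding GTPase that attacks intracellular pathogens, stood at 3.63, 4.91 and 2.15 CPM in LoVo, 13.4, 6.996 and 10.5 in LS1034, 4.63, 2.17 and 3.704 in HT-29 and 0, 0.243 and 0.0463 in HCT 116, against 142, 173 and 165 CPM in CCD 841 CoN. HCT 116 had 0, 5 and 1 counts. GBP1 was called lower in LoVo (-5.81 ± 0.52, adjusted p = 1.76e-07), LS1034 (-4.22 ± 0.48, adjusted p = 2.14e-06), HT-29 (-5.75 ± 0.52, adjusted p = 1.84e-07) and HCT 116 (-11.13 ± 0.71, adjusted p = 7.27e-09), the lowest value of all 40 genes, which rests on these few counts. SAMD9L, which restrains translation and growth, stood at 1.07, 0.603 and 1.83 CPM in LoVo, 3.47, 0.333 and 0.149 in LS1034, 0.8005, 0.1203 and 0.3704 in HT-29 and 0, 0.243 and 0 in HCT 116, against 60.8, 72.9 and 84.6 CPM in CCD 841 CoN. Its neighbour and paralogue SAMD9 was called in no line, at 14.8 ± 2.44 CPM in LoVo, 25.7 ± 18.1 in LS1034, 55.2 ± 9.83 in HT-29 and 21.5 ± 15.2 in HCT 116, against 26.4 ± 1.93 CPM in CCD 841 CoN. With DESeq2 size factors SAMD9 was called lower in LoVo (-1.31, adjusted p = 0.0316). The log2 fold changes of SAMD9L were -6.31 ± 0.998 in LoVo, -5.97 ± 0.97 in LS1034, -7.58 ± 1.08 in HT-29 and -10.23 ± 1.26 in HCT 116, with a mean of -7.52 ± 0.60, adjusted p = 1.71e-08. Its difference among the cancer lines, 4.26 log2 units (adjusted p = 0.0258), was lost without HCT 116 replicate 1 or 3 (3.58 to 3.78, adjusted p = 0.0724 to 0.0862).

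TRIM22, a ubiquitin ligase with antiviral activity, stood at 0.722, 2.05 and 1.04 CPM in LoVo, 1.401, 0.541 and 0 in LS1034, 0.244, 0.521 and 0.741 in HT-29 and 1.94, 0.146 and 0.324 in HCT 116, against 149.96, 96.6 and 104 CPM in CCD 841 CoN. No cancer library came near the CCD 841 CoN range, and the mean log2 fold change was -7.52 ± 0.52, adjusted p = 3.13e-09. XAF1, a pro-apoptotic partner of the inhibitor XIAP, stood at 3.88, 2.98 and 9.73 CPM in LoVo, 5.14, 0.541 and 0.149 in LS1034, 0.975, 1.52 and 1.11 in HT-29 and 0, 0.631 and 0.0463 in HCT 116, against 21.3, 27.7 and 26.2 CPM in CCD 841 CoN. Lower calls of XAF1 were made in HCT 116 (-7.23 ± 1.25, adjusted p = 0.000163), HT-29 (-4.62 ± 1.07, adjusted p = 0.00189), LS1034 (-3.93 ± 1.03, adjusted p = 0.00433) and LoVo (-2.5003 ± 0.96, adjusted p = 0.038). The LoVo call was lost without LoVo replicate 1 or 2 or any CCD 841 CoN library (-2.59 to -2.27, adjusted p = 0.0622 to 0.110). GBP1, SAMD9L, TRIM22 and XAF1 have their highest levels in the line that also carries the fibroblast markers, and the part of cell type in this was not tested.

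ISG20, an RNA exonuclease, was called higher in 3 of the 4 cancer lines. It stood at 11.2, 4.83 and 22.3 CPM in LoVo, 114, 22.7 and 189.98 in LS1034, 37.1, 27.5 and 13.5 in HT-29 and 2.57, 2.43 and 2.36 in HCT 116, against 0.528, 0.772 and 0.619 CPM in CCD 841 CoN. All 12 cancer libraries exceeded those of CCD 841 CoN, and LS1034 replicate 2 lay far below the other libraries of its line. ISG20 was called higher in LoVo (4.03 ± 0.77, adjusted p = 0.000355), LS1034 (7.19 ± 0.84, adjusted p = 2.77e-06) and HT-29 (5.11 ± 0.79, adjusted p = 5.1e-05), and missed the call in HCT 116 (1.65 ± 0.76, adjusted p = 0.0765). LGALS3BP, a secreted galectin-binding glycoprotein, was abundant in all lines and called in none, at 409 ± 218 CPM in LoVo, 699 ± 70.03 in LS1034, 1245 ± 147 in HT-29 and 379 ± 179 in HCT 116, against 595 ± 91.3 CPM in CCD 841 CoN. With DESeq2 size factors LGALS3BP was called lower in LoVo (-1.04, adjusted p = 0.0251) and HCT 116 (-1.13, adjusted p = 0.0168). With library size only it was called higher in HT-29 (1.07, adjusted p = 0.0228). Among the cancer lines it differed, with the highest level in HT-29 (gap 1.78 log2 units, adjusted p = 0.000927).

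The remaining genes are known chiefly as markers of interferon exposure. IFI27, a small mitochondrial protein, had 32.4, 34.6 and 111 CPM in LoVo, 512, 86.9 and 87.4 in LS1034, 173, 84.8 and 259 in HT-29 and 0.848, 0.728 and 1.203 in HCT 116, against 11.97, 18.9 and 18.99 CPM in CCD 841 CoN. IFI27 was called higher in LS1034 (3.503 ± 0.70, adjusted p = 0.000541) and HT-29 (3.16 ± 0.69, adjusted p = 0.00115) and lower in HCT 116 (-4.46 ± 0.77, adjusted p = 0.000158). Its gap among the cancer lines, from LS1034 down to HCT 116, was 7.96 log2 units (adjusted p = 1.06e-05 for any difference among them). IFI44 averaged 6.12 ± 3.78 CPM in LoVo, 1.697 ± 1.396 in LS1034, 17.4 ± 5.75 in HT-29 and 0.609 ± 0.522 in HCT 116, against 0.704 ± 0.164 CPM in CCD 841 CoN. It was called higher in HT-29 (4.35 ± 0.86, adjusted p = 0.000499) and in LoVo (2.78 ± 0.82, adjusted p = 0.009), but in LoVo not without LoVo replicate 1 (2.097, adjusted p = 0.0515). Its neighbour IFI44L was nearly silent, with means of 0.366 ± 0.349 CPM in LoVo, 0.794 ± 0.945 in LS1034, 0.661 ± 0.4195 in HT-29 and 0.224 ± 0.313 in HCT 116, against 0.168 ± 0.172 CPM in CCD 841 CoN, and no call.

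EPSTI1 stood at 12.2, 9.45 and 21.3 CPM in LoVo, 42.2, 15.4 and 6.79 in LS1034, 0.557, 0.481 and 1.57 in HT-29 and 0.787, 0.485 and 0.278 in HCT 116, against 37.2, 33.2 and 31.6 CPM in CCD 841 CoN. No library of HT-29 or HCT 116 passed 1.57 CPM, and both lines were called lower (-5.63 ± 0.72, adjusted p = 7.87e-06 and -6.29 ± 0.74, adjusted p = 3.5e-06). The LoVo call (-1.57 ± 0.59, adjusted p = 0.0328) was lost without LoVo replicate 1 or 2 or any CCD 841 CoN library (-1.62 to -1.40, adjusted p = 0.0568 to 0.0903). IFI6, a membrane protein of mitochondria and endoplasmic reticulum, averaged 46.7 ± 42.5 CPM in LoVo, 46.3 ± 57.7 in LS1034, 37.7 ± 19.7 in HT-29 and 16.9 ± 6.76 in HCT 116, against 64.98 ± 15.3 CPM in CCD 841 CoN. HCT 116 was called lower (-2.23 ± 0.79, adjusted p = 0.0265), but not without HCT 116 replicate 1 or 2 or CCD 841 CoN replicate 2 or 3 (-2.35 to -2.03, adjusted p = 0.0557 to 0.0789). IFI35 averaged 25.9 ± 18.6 CPM in LoVo, 24.8 ± 12.9 in LS1034, 25.6 ± 8.81 in HT-29 and 13.8 ± 6.56 in HCT 116, against 36.3 ± 4.06 CPM in CCD 841 CoN, and was called lower in HCT 116 (-1.69 ± 0.54, adjusted p = 0.0142).

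The 4 cancer lines were then compared with each other, without CCD 841 CoN as a control. Of the 40 genes 32 were called different among the lines, where 53.6% of all tested genes were, and the median gap between the highest and lowest line was 3.096 log2 units beside 1.503 over all genes. HCT 116 had the lowest mean of the 4 lines in 29 of the 40 genes, a place it held for 24.02% of all genes. LoVo was lowest in 4, LS1034 in 3 and HT-29 in 4. LS1034 was highest in 15, LoVo in 14, HT-29 in 6 and HCT 116 in 5. Against HCT 116, LoVo had 19 genes called higher (11.9% of all genes) and 2 lower (10.2%), with a median log2 fold change of 1.43 beside -0.03 over all genes. LS1034 had 23 called higher (16.6%) and 2 lower (16.3%), with a median of 1.74 beside -0.02. HT-29 had 19 called higher (15.2%) and 4 lower (15.4%), with a median of 1.58 beside -0.08. These 3 comparisons share the HCT 116 libraries.

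Called higher in all 3 other lines than in HCT 116 were 13 of the 40 genes, a state shared by 4.96% of the 14452 tested genes. They were ISG20, IFI27, IFIT2, IFIT3, MX1, OAS1, OAS2, OASL, BST2, RSAD2, PARP9, DTX3L and GBP1. These 13 were the same with DESeq2 size factors, with library size only, with no filter, with the replicate block over all 15 libraries and with only the compared groups. With the block over the 12 cancer libraries IFIH1 joined them, and with DESeq2 IRF9 and XAF1 did. With 1 library left out the count lay between 12 and 15, and at most 1 of the 13 was lost: ISG20 without LoVo replicate 3, and RSAD2 without HCT 116 replicate 1 or 2. These alternatives were added after the values were seen. HERC5 alone of the 40 was called lower in all 3 other lines than in HCT 116, as were 3.72% of all genes. Also called lower than in HCT 116 were IFITM2 in LoVo, IFIT5 in LS1034, and IFIT5, IFITM3 and UBE2L6 in HT-29. The call of IFIT5 in LS1034 was lost without LS1034 replicate 2 or 3 or HCT 116 replicate 1 (-0.98 to -0.78, adjusted p = 0.0373 to 0.0723). The epithelial markers summed to 7186 to 22885 CPM in LoVo, LS1034 and HT-29 and to 2395 to 4105 CPM in HCT 116. Whether that sum bears on the interferon-stimulated genes was not tested. Between the cancer lines, libraries with the same replicate number deviated together, and with that number as a block over the 12 cancer libraries IFIT1 was also called different (1.24, adjusted p = 0.0473) and SAMD9L no longer was (3.77, adjusted p = 0.133).

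The libraries of 1 line differed among themselves in these genes. Over genes of at least 5 CPM, the ratio of the highest to the lowest of the 3 libraries (CPM + 1) had a median of 2.72 over 32 of the 40 genes in LS1034 beside 1.56 over all genes. It was 2.36 beside 1.85 in LoVo (31 of the 40), 1.54 beside 1.47 in HT-29 (28), 1.88 beside 1.78 in HCT 116 (20) and 1.28 beside 1.23 in CCD 841 CoN (30). In LS1034, replicate 1 was the highest library in 27 of the 32 genes, and the ratio passed 3 in 12 of them, against 6.53% of all genes. MX1 in LS1034 had the largest ratio, 11.96, and the values of OAS2, IFI27, EPSTI1 and XAF1 above have the same library on top. In LoVo replicate 3 was highest in 16 of 31 genes, and in HT-29 replicate 3 in 15 of 28. Expressed as the median deviation of the 40 genes from their means over the 15 libraries, LS1034 stood at 0.86, 0.17 and -0.34 log2 units and HCT 116 at -0.93, -1.39 and -0.95. No library of another line came as low as those of HCT 116.

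**Figure D4:**
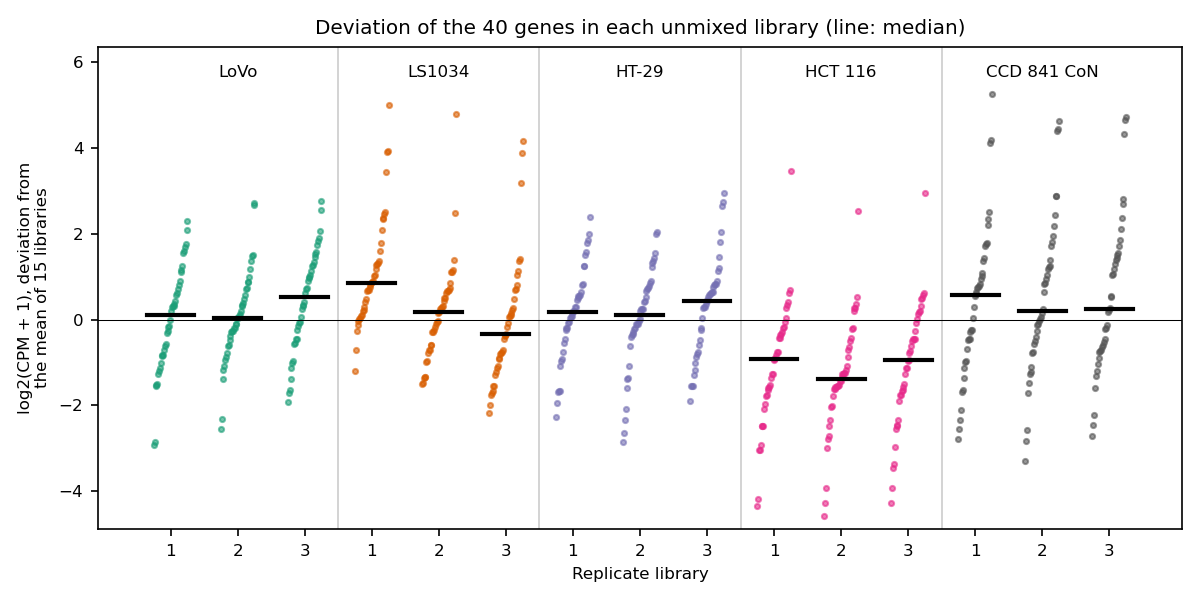
Deviation of each of the 40 genes from its mean over the 15 unmixed libraries, in log2(CPM + 1) units (y axis), for each library, with the median as a black line. The medians of the 3 HCT 116 libraries lie at -0.93, -1.39 and -0.95, below those of all other libraries, and those of LS1034 spread from -0.34 to 0.86.

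Upstream of these genes, the ligands were close to absent. Of 10 interferon genes on the list, 6 were in the table, none passed the filter, and their mean levels reached at most 0.144 ± 0.125 CPM (IFNW1 in LS1034). Of 11 receptors, kinases and STATs, 1 was called higher and 3 lower in LoVo, 1 and 5 in LS1034, 1 and 8 in HT-29, and 1 and 5 in HCT 116. Of all tested genes 24.7 to 26.5% were called higher and 20.9 to 21.6% lower in these comparisons, beside which the counts of this and the next lists stand. IFNGR2, the signalling chain of the interferon gamma receptor, was called lower in all 4 lines, with log2 fold changes of -1.11 in LoVo, -1.59 in LS1034, -1.22 in HT-29 and -1.12 in HCT 116. So was STAT3, best known downstream of interleukin-6, with -1.92 in LoVo, -1.12 in LS1034, -1.08 in HT-29 and -1.797 in HCT 116. The higher gene was in each line IFNLR1, the specific receptor chain of interferon lambda, with 22.5 ± 5.38 CPM in LoVo, 8.19 ± 1.56 in LS1034, 4.51 ± 0.8904 in HT-29 and 14.3 ± 3.52 in HCT 116 and no count in CCD 841 CoN.

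Among 15 tested sensors and adaptors, 4 were called higher and 2 lower in LoVo, 5 and 1 in LS1034, 1 and 2 in HT-29, and 1 and 6 in HCT 116. CGAS, the DNA sensor that makes the ligand of STING, averaged 49.3 ± 4.49 CPM in LoVo, 45.99 ± 6.33 in LS1034, 23.3 ± 14.3 in HT-29 and 0.06395 ± 0.0744 in HCT 116, against 14.2 ± 3.19 CPM in CCD 841 CoN. It was called higher in LoVo and LS1034 and lower in HCT 116. The DNA sensor IFI16 averaged 1.02 ± 0.515 CPM in LoVo, 30.2 ± 21.2 in LS1034, 0.362 ± 0.254 in HT-29 and 0.226 ± 0.145 in HCT 116, against 60.03 ± 4.62 CPM in CCD 841 CoN, and was called lower in all but LS1034. Of 8 feedback inhibitors, 2 were called higher and 3 lower in LoVo, 1 and 2 in LS1034, 2 and 2 in HT-29, and 2 and 2 in HCT 116. SOCS1, the cytokine-induced inhibitor of JAK kinases, was called lower in every line, with 1.002 ± 0.264 CPM in LoVo, 1.06 ± 0.399 in LS1034, 0.2603 ± 0.338 in HT-29 and 2.55 ± 1.14 in HCT 116, against 7.08 ± 2.18 CPM in CCD 841 CoN. A list of 44 other interferon-induced genes, 42 of them tested, gave 5 higher and 16 lower in LoVo, 9 and 9 in LS1034, 7 and 15 in HT-29, and 1 and 25 in HCT 116. Of these, LY6E, which hinders coronavirus fusion, averaged 0.0236 ± 0.0214 CPM in LS1034 and 228 ± 102 in HCT 116, against 198 ± 23.2 CPM in CCD 841 CoN. PSMB8, a subunit of the immunoproteasome, averaged 93.5 ± 24.6 CPM in LS1034 and 0.2498 ± 0.2203 in HCT 116, against 31.05 ± 2.82 CPM in CCD 841 CoN. APOL1, an apolipoprotein that kills trypanosomes, averaged 48.1 ± 25.8 CPM in HT-29 and 0.123 ± 0.188 in HCT 116, against 11.8 ± 2.45 CPM in CCD 841 CoN. IFI16 is on both the sensor list and the list of 44. TRIM21 is on both the inhibitor list and the list of 44, so the counts of these lists overlap. All these lists hold genes other than the 40 and were drawn up with earlier results of these data known.

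In the mixtures the same genes were followed as cancer RNA was diluted with CCD 841 CoN RNA. Here 39 of the 40 genes passed the filter (all but IFI44L) among 13212 tested. The 4 cancer lines served as repeats of a percentage, and a gene was called at an adjusted p below 0.05 alone. All mixtures hold CCD 841 CoN RNA, which makes up 99.9% of those with 0.1% cancer RNA, so the repeats are not independent. The p-values measure only the spread between these mixtures, which share most of their RNA at low percentages. At 50% against 0.1% cancer RNA, 8 genes were called higher (30.1% of all tested genes) and 12 lower (24.1%). At 10% against 0.1%, 2 were called higher (OAS1 and OASL, 6.21% of all genes) and 1 lower (SAMD9L, 1.18%). Higher at 50% were ISG20, IFI27, IFIH1, OAS1, OAS3, OASL, HERC6 and IRF7, and lower were TRIM22, SAMD9L, XAF1, GBP1, STAT2, IFITM2, IFITM3, UBE2L6, IFIT3, EPSTI1, IRF1 and IFIT5. With library size only in place of TMM scaling, calls over all genes at 10% were 892 higher and 26 lower, where TMM gave 820 higher and 156 lower, and the median over all genes at 50% was 0.12 higher.

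Of the genes higher at 50%, OAS1, OASL, ISG20 and IFI27 are given in full. In mixtures with 0.1, 1, 10 and 50% cancer RNA, OAS1 stood at 0.408, 1.67, 10.5 and 38.1 CPM with LoVo, 2.17, 3.39, 25.4 and 99.3 with LS1034, 1.24, 3.06, 12.2 and 43.1 with HT-29 and 0.459, 0.866, 0.712 and 1.66 with HCT 116. It increased at each step with LoVo, LS1034 and HT-29 and stayed at 1.66 CPM or less with HCT 116. OAS1 was called at 50% (log2 fold change 5.14 ± 0.59, adjusted p = 6.66e-06) and at 10% (3.44 ± 0.57, adjusted p = 0.00148). OASL, called at 50% (log2 fold change 3.72 ± 0.61, adjusted p = 0.000169) and at 10% (2.36 ± 0.59, adjusted p = 0.0253), stood at 0.544, 0.847, 4.71 and 17.9 CPM with LoVo, 0.483, 2.003, 4.04 and 10.5 with LS1034, 0.825, 0.602, 4.53 and 14.1 with HT-29 and 0.612, 0.289, 1.101 and 1.04 with HCT 116. The 10% call of OASL was lost without the LoVo, the LS1034 or the HT-29 mixtures (2.06 to 2.32, adjusted p = 0.136 to 0.170). ISG20 was called at 50% (log2 fold change 3.803 ± 0.79, adjusted p = 0.00105), with 0.861, 0.9705, 2.203 and 8.24 CPM with LoVo, 1.16, 2.52, 23.6 and 88.3 with LS1034, 0.413, 0.766, 2.03 and 11.3 with HT-29 and 1.15, 1.52, 0.648 and 1.66 with HCT 116. IFI27 (log2 fold change 2.003 ± 0.51, adjusted p = 0.00453) stood at 10.96, 19.04, 48.6 and 158 CPM with HT-29 and 11.5, 14.1, 10.2 and 7.34 CPM with HCT 116, and its call was lost without the HT-29 mixtures (1.36, adjusted p = 0.0549).

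Of the genes lower at 50%, TRIM22 and GBP1 are given with their levels. TRIM22 stood at 149.7, 152, 133 and 75.5 CPM with LoVo, 156, 148, 139 and 71.7 with LS1034, 137, 139, 119 and 62.3 with HT-29 and 151, 158, 139 and 60.5 with HCT 116 at 0.1, 1, 10 and 50%. TRIM22 was called lower at 50% (-1.25 ± 0.07, adjusted p = 1.36e-08), and all 16 values were above those expected from the means of the unmixed libraries, which were 117, 116, 105 and 59.02 CPM with LoVo. The unmixed CCD 841 CoN libraries stood at 149.96, 96.6 and 104 CPM. The values at 0.1%, 137 to 156 CPM, lay closest to the highest of these 3. GBP1 (log2 fold change -0.99 ± 0.07, adjusted p = 4.37e-08) stood at 159.5, 169, 141 and 88.5 CPM with LoVo and 149, 153, 124 and 83.5 CPM with HCT 116. SAMD9L was called lower at 50% (log2 fold change -1.199 ± 0.10, adjusted p = 2.14e-07) and at 10% (-0.35 ± 0.09, adjusted p = 0.0358), but the 10% call was lost when the mixtures of any 1 line were left out (-0.41 to -0.30, adjusted p = 0.0666 to 0.198). The log2 fold changes at 50% were -0.89 ± 0.06 for IFITM2, -0.81 ± 0.07 for IFITM3, -0.97 ± 0.11 for STAT2 and -0.81 ± 0.12 for UBE2L6. HERC6 was called higher at 50% (0.82 ± 0.32, adjusted p = 0.0407) and lost the call without the mixtures of any 1 line (0.43 to 0.96, adjusted p = 0.0565 to 0.157). IFIT3 lost its call without the LS1034 mixtures (-0.69, adjusted p = 0.0658), and IFIT5 without the LS1034 or HT-29 mixtures (-0.35 to -0.23, adjusted p = 0.111 to 0.186).

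**Figure D5:**
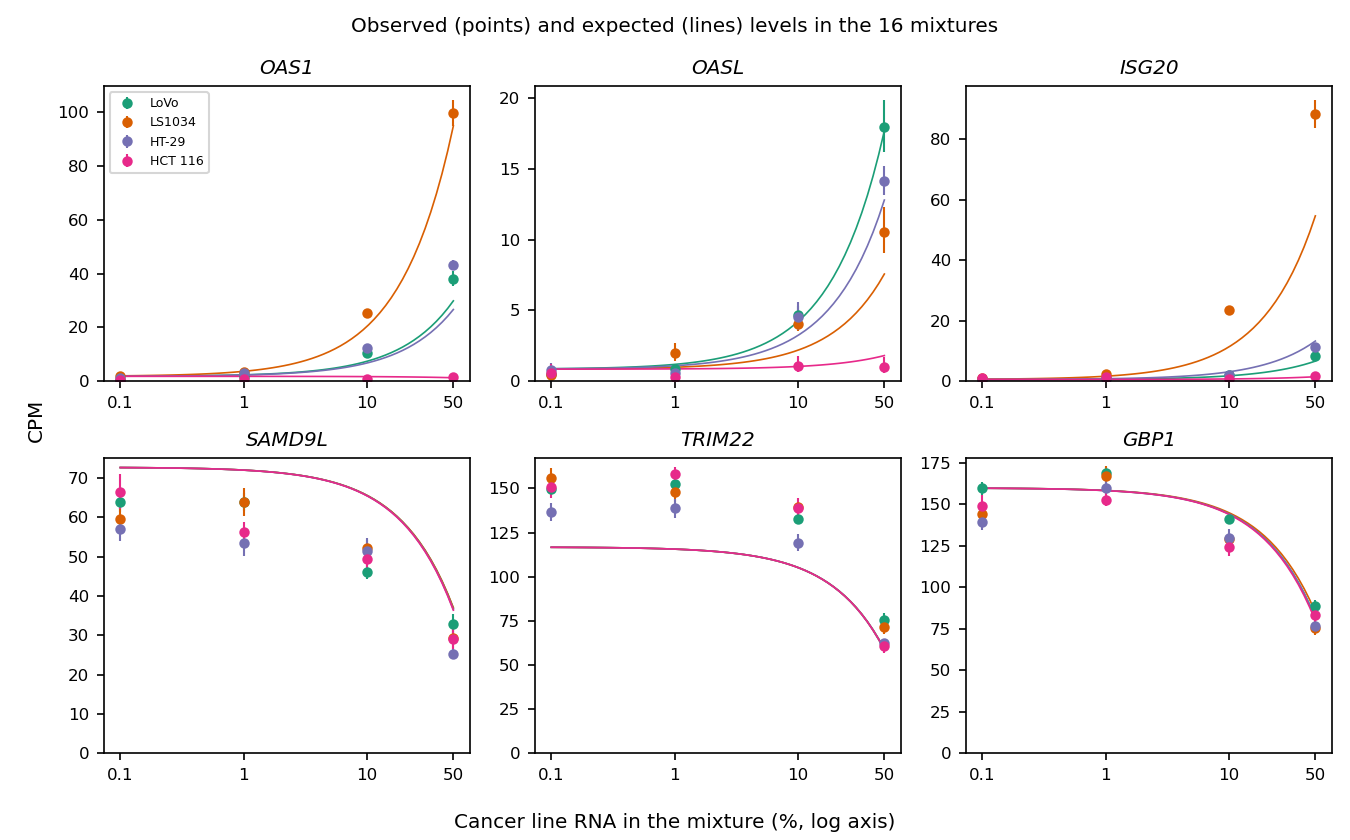
Observed levels (points, with exact 95% Poisson intervals of the count) and levels expected from the unmixed means and nominal percentages (lines) of 6 genes in the 16 mixtures, with CPM on the y axis and cancer RNA percentage on a log x axis. OAS1, OASL and ISG20 are higher at 10 and 50% than at 0.1% with LoVo, LS1034 and HT-29 and stay at 1.66 CPM or less with HCT 116, and SAMD9L, TRIM22 and GBP1 are lower at 50% with all 4 lines.

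Each mixture was set beside the level expected from the unmixed means and the nominal percentage, with no test because there is 1 library per mixture. Over the 30 to 35 genes with an expected level of at least 5 CPM, 28 to 35 lay within 2-fold of it. Of all genes at that level, 97.7 to 99.2% did. With LS1034, 29 of 33 genes did at 10% (98.9% of all genes) and 29 of 34 at 50% (98.5%). At 50% all 34 did with LoVo, all 35 with HT-29 and all 31 with HCT 116. The median log2 ratio of observed to expected level, averaged over the 4 lines, was -0.14 ± 0.01 at 0.1%, -0.11 ± 0.01 at 1%, -0.13 ± 0.04 at 10% and -0.08 ± 0.17 at 50% (SD, n = 4). The ratios averaged at a percentage share the same unmixed CCD 841 CoN mean. Their SD leaves out the spread of the libraries behind that mean. Over all genes the median lay between 0.01 and 0.03 at 0.1, 1 and 10% and between -0.05 and -0.02 at 50%. The gene furthest below expectation was MX2 in 7 mixtures, and HERC6, OAS2, MX1 or IFITM1 in the others. MX2 stood at 1.51, 3.67, 0.677 and 1.63 CPM with HT-29 at 0.1, 1, 10 and 50%, where 6.305, 6.27, 5.903 and 4.28 CPM were expected, and at 1.45, 2.21, 2.43 and 6.205 CPM with LS1034, where 6.31, 6.33, 6.56 and 7.56 CPM were expected. IFITM1 at 0.1% stood at 36.1 CPM with LoVo, 31.3 with LS1034, 36.04 with HT-29 and 33.96 with HCT 116, beside 35.998, 78.3 and 68.9 CPM in the unmixed CCD 841 CoN libraries. MX1 in the 50% LS1034 mixture stood at 5.34 CPM (exact 95% Poisson interval 4.27 to 6.59) where 20.1 CPM were expected from unmixed libraries of 68.99, 10.2 and 4.85 CPM. The median ratio was lowest in that mixture (-0.32). Shares of cancer RNA were estimated from line markers outside the 40 genes, here for LoVo, LS1034, HT-29 and HCT 116 in that order. They were 0.139, 0.159, 0.206 and 0.143% in the 0.1% mixtures, and 1.07, 1.45, 1.81 and 1.24% at 1%. At 10% they were 10.3, 13.6, 15.3 and 11.3%, and at 50% 48.5, 56.1, 57.2 and 51.3%. All but that of LoVo at 50% were above the nominal percentage. Using these shares moved none of the averages above by more than its SD.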

How the data were processed

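RNA was extracted from 5 colorectal lines and their RNA mixtures, and libraries were made with a stranded kit after ribosomal RNA removal, per the labels' protocols. Reads were aligned with STAR to hg19 and counted with featureCounts, per the submitters' processing notes; versions and the strand setting are not given in the sources used here. The deposited values are raw counts per protein-coding gene for 31 libraries, used without further rounding or filtering.

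The 40 genes and the other lists were chosen with earlier results of these data known. CPM is the gene's count divided by the library's total and scaled, with no offset. Tests used edgeR 4.0.16 (R 4.3.3) quasi-likelihood fits with TMM scaling and filterByExpr over all genes, with Benjamini-Hochberg adjustment: a coefficient per line over the 15 unmixed libraries, and percentage plus cancer line over the 16 mixtures. SE is the log2 fold change divided by the root of the F statistic, and a gap among lines has none. The fits were also run on simulated counts, the outcome of which is not reported here. Poisson intervals cover counting error only. Alternatives were DESeq2 1.42.0, other scaling, no filter, only the compared groups, a replicate block and leaving out libraries.

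Values per library and full statistics are given for at most the 8 called genes with the largest difference in each comparison, in the mixtures those with the lowest adjusted p, and for STAT2 and IRF9. Values per library of IFIH1, OAS3, IFIT2, IFIT3 and HERC5, and fold changes of the other called genes, were added after their values were seen. Libraries of different cancer lines with the same replicate number deviated together in 18 of 18 pairs (correlation 0.105 to 0.718), and with CCD 841 CoN in none of 12 (-0.0816 to 0.0146), so numbers were taken to pair the cancer lines only. Within a line, libraries correlated at Spearman's rho of 0.955 to 0.986 across genes, which are not independent replicates. A gene of the upstream list is not reported here.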

Additional observations from a re-analysis of the deposited data

Results flagged for a closer look

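IFI27, IFIT2, IFITM1, MX1 and OAS1 were called in opposite directions against CCD 841 CoN in different cancer lines, and each differed among the cancer lines in the test of that difference itself. Of all tested genes, 3.34% were called in opposite directions. The adjusted p (edgeR) was 1.06e-05 for IFI27, which was higher in LS1034 and HT-29 and lower in HCT 116. It was 0.000525 for IFIT2, higher in LoVo and lower in HCT 116, and 6.73e-09 for IFITM1, higher in LS1034 and lower in LoVo, HT-29 and HCT 116. It was 0.000104 for MX1, higher in LoVo and lower in HCT 116, and 7.78e-07 for OAS1, higher in LoVo, LS1034 and HT-29 and lower in HCT 116. The calls on 1 side were not stable for 3 of them: OAS1 in HCT 116 was lost without any 1 of 5 libraries and in 3 other settings, IFIT2 in LoVo without any 1 of 3 libraries and in 1 other setting, and MX1 in LoVo without any 1 of 3 libraries.

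For the genes called in the mixtures, 43 groups of 4 mixtures of a percentage were examined for 1 mixture set apart from the other 3, relative to their range. There were 6 such cases. A rate of 1 in 20 (2.15 of 43) would hold only for like mixtures and independent genes. The 4 mixtures of a percentage hold RNA of different cancer lines, and the genes share the same mixtures. The 6 cases therefore cannot be set against that rate. The gap is small in size for 4 of the 6. HERC6 stood at 7.97 CPM in the 0.1% LS1034 mixture, beside 6.97 to 7.09 in the others, and OAS3 at 24.8 CPM in the same mixture, beside 21.4 to 21.5. EPSTI1 stood at 38.5 CPM in the 0.1% LoVo mixture, beside 31.7 to 32.7, and IFIT3 at 43.6 CPM in the 0.1% HT-29 mixture, beside 35.3 to 36.02. HERC6 stood at 24.2 CPM in the 50% LoVo mixture, beside 9.97 to 11.04, and ISG20 at 88.3 CPM in the 50% LS1034 mixture, beside 1.66 to 11.3. Unmixed LoVo also had the highest mean HERC6 of the 4 cancer lines (48.3 CPM), and unmixed LS1034 the highest mean ISG20 (109 CPM).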

How the results depend on the processing

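Of 241 calls of the 40 genes over the comparisons with CCD 841 CoN, among the lines, against HCT 116 and in the mixtures, none changed direction under any alternative, 41 were lost when some library or line was left out, and 25 were lost under another setting. Other calls were gained: 11 gained and 3 lost with DESeq2 size factors, 17 and 2 with DESeq2, and 9 and 12 with library size only. With DESeq2 size factors, SAMD9, IFIT5, UBE2L6 and LGALS3BP gained a lower call in LoVo against CCD 841 CoN. So did IFIT3 in LS1034, and ISG15 (-1.16, adjusted p = 0.0235) and LGALS3BP in HCT 116. With 1 library left out, the count of the 40 genes called higher lay between 5 and 8 for the mean of the lines and between 2 and 4 for HCT 116, and the count called lower in LS1034 than in HCT 116 between 1 and 3. At 10% against 0.1%, with 1 line's mixtures left out, 1 to 3 of the 40 genes were called higher and 0 lower, and 515 to 701 of all genes higher and 18 to 45 lower. With no term for the cancer line, 0 of the 40 and 390 of all genes were called higher at 10%, where 2 and 820 were called with it. Of the 40 genes, those called lower at 10%, 1 in the edgeR fit reported, numbered 2 with DESeq2 size factors, 0 with library size only, 5 with DESeq2 and 5 with only the compared groups. Of all genes, those called lower at 10%, 156 in that fit, numbered 26 with library size only, 385 with DESeq2 and 486 with only the compared groups. At 50% with only the compared groups, 2581 of all genes were called higher and 2030 lower, against 3973 and 3187. The average ratio of observed to expected level in the 1% mixtures was -0.08 with TMM-scaled CPM (-0.0841) in place of -0.11. The causes were not tested.

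With the replicate block, the 40 genes gave 7 higher and 19 lower for the mean of the lines, 11 and 16 in LoVo, 9 and 11 in LS1034, 8 and 12 in HT-29, 3 and 26 in HCT 116, and 33 different among the cancer lines (32 with only the 12 cancer libraries). No count moved by over 1.5 times. Over all 15 libraries the block treats CCD 841 CoN numbers as paired with those of the cancer lines, a pairing the correlations did not show. The blocked counts against CCD 841 CoN are therefore limited by that mismatch. The block ended the calls of HERC6 in the mean (0.99), of IRF1 in LS1034 (-0.99) and of OASL in HCT 116 (1.32, adjusted p = 0.0521). It also added 13 calls, among them lower IFIT1 in HCT 116 against CCD 841 CoN (-1.07, adjusted p = 0.0336). Over the 12 cancer libraries it also ended, against HCT 116, the calls of SAMD9L in LoVo (3.77) and LS1034 (3.38), XAF1 in LS1034 (3.09) and MX2 in HT-29 (3.3004), with adjusted p = 0.0618 to 0.111. Libraries of 9688765 to 56741879 counts leave genes under 1 CPM, such as IFI44L, on few counts.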
